A study of Homo sapiens with 4 samples.

Results

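The genes described here encode factors that build the ribosome in the nucleolus of Panc1 cells, an established line of human pancreatic cancer. A list of 60 such factors was matched to the gene symbols of the array, current or former, and 73 of its 24460 gene probes, for 58 of the 60 factors, carried a match. UTP14A and NOP58 had no probe under this rule. All 58 genes met the signal rule for testing, out of 16592 genes tested in all, NOL6 only through the resistant clones described next. The 3 clones that resist gemcitabine, named GR1, GR3 and GR4, were each hybridized to 1 array, and the parental Panc1 line, grown without the drug, to 1 more. Gemcitabine is a deoxycytidine analogue that blocks DNA synthesis. Per the labels, the resistant population was selected over 2 months with the drug raised stepwise, at 2 ng/ml first and 30 ng/ml last, and then cloned by limiting dilution, and all cultures held 10% serum. The treatment text names the clones GR1, GR2 and GR3, and the sample titles were followed here. The clones come from 1 selection and the parental line has 1 array, so p-values measure only the spread between the 3 clones, and any peculiarity of the parental array enters every difference below.

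Ribosomes are assembled in the nucleolus from ribosomal RNA and ribosomal proteins. The small subunit processome forms on the new rRNA precursor around the U3 small nucleolar RNA and starts the folding and cutting of the part that becomes the small subunit, and later factors finish that subunit on its way to the cytoplasm. Box C/D particles add methyl groups to rRNA, box H/ACA particles turn uridines into pseudouridines, and another set of factors assembles the large subunit. Many of these genes are known targets of the transcription factor MYC, which binds the E-box motif, and the demand of growing tumour cells for ribosomes is a long-studied trait.

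The E-box motif CACGTG was the single motif searched for, chosen because of that background. It reads the same on both strands. RefSeq promoter windows of GRCh38.p14, reaching from 250 bases before the transcript start to 50 after it, were found for 48 of the 58 genes, as 55 windows. The motif was present in 23 of these 55 windows (41.8%), which belong to 22 genes, and in 2548 of all 35116 windows of the annotation (7.26%). The motif is in capitals in the following sites of 30 bases each. They come from 6 genes that passed the test described below and from 3 that did not. They show that both kinds carry the motif, but not how often. All were taken from sites beginning between 15 bases before the transcript start and the window's end, a range set after the positions were seen.
UTP20 (chr12:101280083-101280112, plus strand): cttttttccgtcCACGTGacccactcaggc
WDR43 (chr2:28894658-28894687, plus strand): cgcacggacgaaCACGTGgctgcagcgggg
PNO1 (chr2:68157885-68157914, plus strand): ggtgcagctgcgCACGTGtttcagccggca
BYSL (chr6:41921515-41921544, plus strand): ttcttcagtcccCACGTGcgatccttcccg
LTV1 (chr6:143843354-143843383, plus strand): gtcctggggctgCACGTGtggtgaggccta
MRTO4 (chr1:19251807-19251836, plus strand): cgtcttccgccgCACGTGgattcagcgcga
FBL (chr19:39846356-39846385, minus strand): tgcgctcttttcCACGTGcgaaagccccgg
NOP10 (chr15:34343130-34343159, minus strand): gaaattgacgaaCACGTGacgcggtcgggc
GNL2 (chr1:37595917-37595946, minus strand): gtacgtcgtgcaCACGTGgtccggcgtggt

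Over all 55 windows, most motif matches lay close to the transcript start. The motif began within the first 25 bases from the start in 12 of the 55 windows (21.8%), against 191 of all windows (0.544%). A further 5 windows (9.09%) held it in the next 25 bases, against 0.342% of all windows, and 4 (7.27%) in the 25 bases before the start, against 0.880%. Farther upstream, no bin of 25 bases held it in more than 1 of the 55 windows. A match describes the letters of the window and shows no binding.

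**Figure D1:**
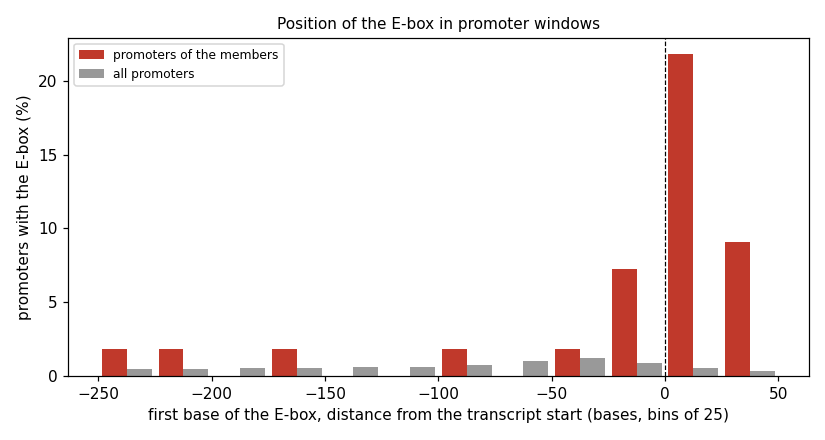
Share of promoter windows (%) in which the E-box begins in each bin of 25 bases, by distance from the transcript start, for the 55 windows of the ribosome biogenesis factors and for all 35116 windows. The highest bin of the factors' windows is the first one after the start, at 21.8% against 0.544%.

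Transcripts of ribosome biogenesis factors were higher in the resistant clones as a group. Signals are given as log2 of the normalized intensity, and differences as the mean of the 3 clones minus the parental array, also on the log2 scale. The median difference over the 58 genes was 1.19, which is 2.29-fold, against -0.02 over all genes tested, and single genes ranged from -0.08 to 2.41. Of the 58 genes 56 were above the parental array in all 3 clones and 0 were below it in all 3, whereas 35.3% of all genes tested were above it in all 3. By limma, with an adjusted p under 0.05 over all tested probes, 16 of the 58 (27.6%) rose in the clones, against 2.17% of all genes, and 0 fell, against 1.89% of all genes. At an unadjusted p under 0.05 by limma, 51 of the 58 passed, all of them higher in the clones, and so did 31.9% of all genes in either direction. In bulk RNA, more cells with a transcript and more of it per cell cannot be told apart.

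Genes were also counted by size, which needs no test but asks that every clone pass. By this measure 43 of the 58 genes (74.1%) were at least 1.5-fold above the parental array in all 3 clones, against 10.1% of all genes. None of the 58 was at least 1.5-fold below it in all 3, against 8.48% of all genes. Of the 57 that were above the blank-spot limit on all 4 arrays, 42 were 1.5-fold higher. With only such probes tested, which leaves out NOL6, the median difference was 1.18. By limma 49 of the 57 then had an unadjusted p under 0.05, against 32.6% of all genes. The 58 genes are brighter than most, with a median log2 signal over the arrays of 8.39 against 5.53 for all genes. Among the 3696 other genes at least as bright as the lower quartile of the 58, 14.1% were 1.5-fold higher in all 3 clones and 2.92% rose by limma, and their median difference was 0.06. All 3 clone differences share the 1 parental array, so the clones do not count as separate evidence of the direction.

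**Figure D2:**
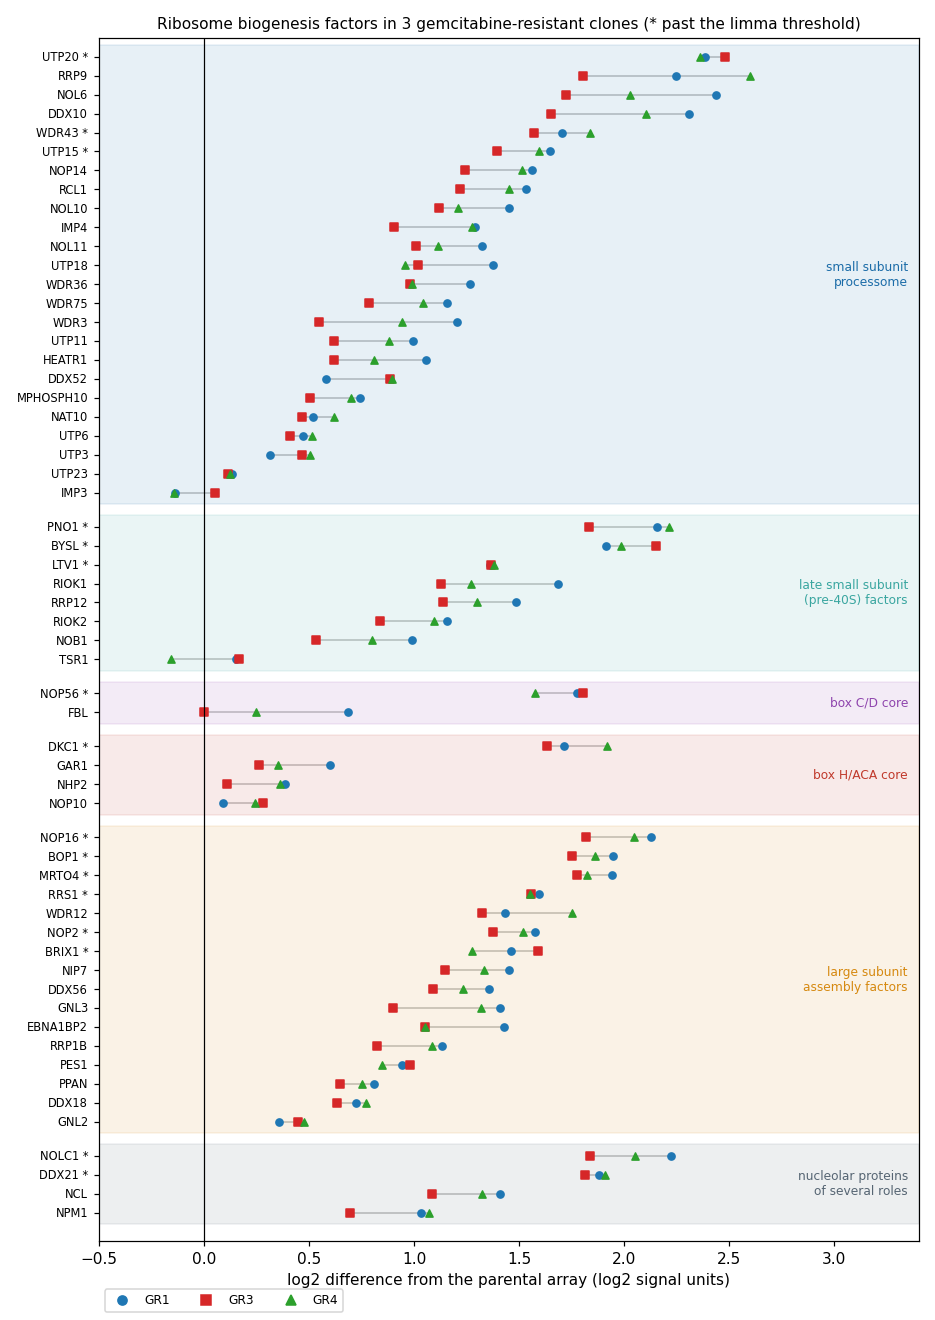
Log2 difference of each clone from the parental array (x axis, log2 signal units) for the 58 genes in 6 role classes, with a symbol for each clone and an asterisk for the 16 genes past the limma threshold. Nearly all symbols lie right of 0, and IMP3 and TSR1 straddle it.

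Among the 24 tested genes of the small subunit processome, 3 rose by limma and 16 were 1.5-fold higher in all 3 clones, and the median difference was 1.10. UTP20, a very large scaffold protein of the processome, had a signal of 8.05, 8.15 and 8.03 on GR1, GR3 and GR4, against 5.67 on the parental array. That difference of 2.41 ± 0.12 (limma SE, 3 clones against 1 array), or 5.31-fold, was the largest of the 58 under the processing used here and above that of 99.6% of all genes. With normexp on the scanner's background column it was 0.88 (limma adjusted p = 0.158), the 24th of the 58. A second, dimmer probe of UTP20 gave a difference of 1.66.

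WDR43 and UTP15, both subunits of the processome's subcomplex that is also needed for transcription of the rRNA genes, rose as well. WDR43 had 8.18, 8.05 and 8.32 in GR1, GR3 and GR4 and 6.48 in parental cells, a difference of 1.70 ± 0.15 (SE). UTP15 had 5.69, 5.44 and 5.64 in the clones and 4.05 in parental cells, a difference of 1.55 ± 0.15 (SE). In UTP20, WDR43 and UTP15 the lowest clone stood well above the parental array. With normexp the difference was 0.73 for WDR43 (limma adjusted p = 0.430), the 30th of the 58. For UTP15 it was 0.36 (limma adjusted p = 0.185), the 42nd.

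RRP9, a protein that binds the U3 RNA, and NOL6, the counterpart of yeast Utp22, had larger differences with more spread between clones. RRP9 had 7.38, 6.94 and 7.73 in GR1, GR3 and GR4 against 5.13 in parental cells, and its difference of 2.21 ± 0.36 (SE) missed the threshold (limma adjusted p = 0.0603). NOL6 had 3.04, 2.33 and 2.63 in the clones. On the parental array it was not well above background, so it was tested only because all 3 clones were above their limit. With the parental value set to the floor of 1.52 units, the mean of the clones was 4.17-fold higher (limma adjusted p = 0.0583). The lowest clone, GR3, was 1.72 above that floor on the log2 scale. The difference moved with the floor, to 1.67 at 2 units and 1.08 at 3 units against 2.06 here, and was 0.12 with normexp. The helicase DDX10, the counterpart of yeast Dbp4, stood 2.02 ± 0.31 (SE) above the parental array with an adjusted p of 0.0566 by limma.

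Not every processome gene differed. IMP3, which with IMP4 and MPHOSPH10 forms a complex on the U3 RNA, had 9.04, 9.23 and 9.03 in GR1, GR3 and GR4 and 9.18 in parental cells, a difference of -0.08 ± 0.14 (SE), so the parental value lies within the range of the clones. Its partner IMP4 was 1.16 higher and MPHOSPH10 was 0.65 higher, and neither passed the threshold. UTP23 differed by 0.12, and its second probe gave 0.43. The other 14 genes of the class lay between 0.43 and 1.44, all of them above the parental array in all 3 clones.

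The late factors of the small subunit gave 3 rises by limma among 8 genes, with a median difference of 1.33. PNO1, an RNA-binding protein that holds the site where the endonuclease NOB1 makes the last cut, had 8.38, 8.05 and 8.43 in GR1, GR3 and GR4 against 6.22 in parental cells, a difference of 2.07 ± 0.20 (SE). BYSL, the counterpart of yeast Enp1, had 8.39, 8.63 and 8.46 in the clones against 6.48, a difference of 2.02 ± 0.15 (SE). LTV1, which leaves the subunit precursor before it matures, had 8.22, 8.22 and 8.24 against 6.86, a difference of 1.37 ± 0.10 (SE), and its 3 clones differ by less than those of the other late factors. With normexp the differences were smaller, at 1.04 for PNO1, 0.85 for BYSL and 0.57 for LTV1. PNO1 and BYSL then passed the threshold and LTV1 did not (limma adjusted p = 0.0478, 0.0425 and 0.648).

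The rest of this class was higher to different degrees. The kinases RIOK1 and RIOK2 differed by 1.36 and 1.03 and RRP12 by 1.31, without passing the threshold. NOB1 differed by 0.77, and its second, dimmer probe gave -0.14. TSR1, a relative of GTPases that occupies the subunit's face during maturation, had 7.73, 7.74 and 7.42 in GR1, GR3 and GR4 and 7.58 in parental cells. The parental value of TSR1 lies among the clones, and the difference was 0.05 ± 0.19 (SE).

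The particles that modify rRNA were uneven. Of the box C/D core, NOP56, a scaffold protein, rose with 10.38, 10.41 and 10.18 in GR1, GR3 and GR4 against 8.61 in parental cells, a difference of 1.72 ± 0.15 (SE). FBL, the methyltransferase of the same particle, had 11.42, 10.74 and 10.99 in the clones and 10.74 in parental cells. GR3 equalled the parental array for FBL to 2 decimals, and the difference of 0.31 ± 0.31 (SE) did not pass the threshold (limma adjusted p = 0.562). SNU13, a further protein of this core, was placed in the wider list described below and is named here with its value known. It had 10.77, 10.61 and 10.82 in the clones and 9.81 in parental cells. Its difference of 0.93 ± 0.14 (SE) did not pass the threshold (limma adjusted p = 0.0567).

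In the box H/ACA core 1 of 4 genes rose. DKC1, the pseudouridine synthase, had 10.13, 10.05 and 10.34 in GR1, GR3 and GR4 against 8.42 in parental cells, a difference of 1.75 ± 0.16 (SE) or 3.37-fold. Its 3 partner proteins had smaller differences, which did not pass the threshold. GAR1 had 8.30, 7.96 and 8.05 in the clones and 7.70 in parental cells, with a difference of 0.41 ± 0.18 (SE).

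NHP2 had 8.46, 8.18 and 8.43 in GR1, GR3 and GR4 and 8.07 in parental cells, with a difference of 0.29 ± 0.17 (SE). NOP10 had 11.31, 11.50 and 11.46 in the clones and 11.22 in parental cells, with a difference of 0.21 ± 0.13 (SE). Each of the 3 partners was above the parental array in all 3 clones, but by less than 1.5-fold in at least 1 of them. NOP10 depends on the background correction, since normexp on the scanner's background column gave it 1.76. The median of the 4 genes was 0.35. Whether DKC1 differs from its partners, or NOP56 from FBL, was not tested.

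**Figure D3:**
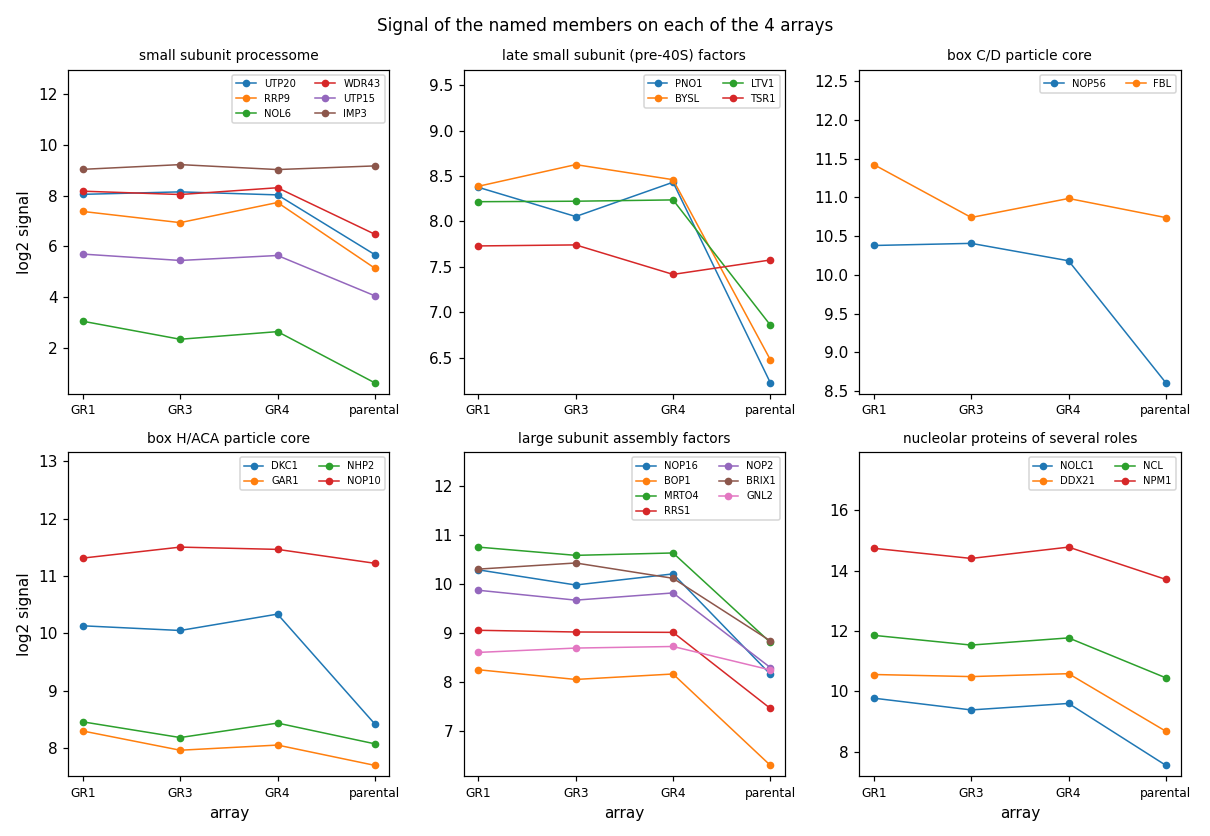
Log2 signal on the arrays of GR1, GR3, GR4 and the parental line for the genes named by rule in each of the 6 role classes, 1 line per gene. DKC1 and NOP56 lie above 10 on the clones, against 8.42 and 8.61 on the parental array, while GAR1, NHP2, NOP10 and FBL have mean differences of 0.21 to 0.41.

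Nearly all large subunit assembly factors were higher in the clones by size. Of 16 genes 6 rose by limma, 15 were 1.5-fold higher in all 3 clones and all 16 were above the parental array in all 3, with differences from 0.43 to 2.00 and a median of 1.27. NOP16, a nucleolar protein of the early large subunit precursor, had 10.29, 9.98 and 10.21 in GR1, GR3 and GR4 against 8.16 in parental cells, a difference of 2.00 ± 0.17 (SE). MRTO4, which holds the place of a stalk protein until late assembly, had 10.75, 10.58 and 10.63 in the clones against 8.81, a difference of 1.85 ± 0.13 (SE).

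BOP1, PES1 and WDR12 form a complex needed for maturation of the large subunit rRNA. BOP1 rose, with 8.25, 8.06 and 8.17 in GR1, GR3 and GR4 against 6.31 in parental cells, a difference of 1.85 ± 0.13 (SE). WDR12 and PES1 differed by 1.502 and 0.92, with limma adjusted p values of 0.0544 and 0.0511. All 3 genes of the complex were thus above the parental array in every clone, and 1 passed the threshold.

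RRS1, which helps to bring a small ribonucleoprotein particle into the large subunit, rose with 9.06, 9.02 and 9.01 in GR1, GR3 and GR4 against 7.46 in parental cells, a difference of 1.57 ± 0.11 (SE). NOP2, an rRNA methyltransferase, had 9.87, 9.67 and 9.82 against 8.30, a difference of 1.49 ± 0.14 (SE). BRIX1, a factor of the early precursor, had 10.30, 10.43 and 10.12 against 8.84, a difference of 1.44 ± 0.17 (SE). The GTPase GNL2 was nearest to 0 in this class. It had 8.61, 8.69 and 8.73 in the clones and 8.25 in parental cells, a difference of 0.43 ± 0.12 (SE) that did not pass the threshold.

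A set of 4 nucleolar proteins act at several steps. NOLC1, a chaperone of small nucleolar particles, rose with 9.78, 9.39 and 9.60 in GR1, GR3 and GR4 against 7.55 in parental cells, a difference of 2.04 ± 0.20 (SE). DDX21, an RNA helicase that links rRNA transcription and processing, rose with 10.56, 10.49 and 10.59 in the clones against 8.68, a difference of 1.87 ± 0.11 (SE). All clones lay above the parental array for both genes. With normexp the difference was 0.29 for NOLC1 (limma adjusted p = 0.877) and 1.5004 for DDX21.

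The 2 abundant proteins of the nucleolus in this class did not pass the threshold. NCL, nucleolin, had 11.86, 11.53 and 11.77 in GR1, GR3 and GR4 against 10.45 in parental cells, a difference of 1.27 ± 0.18 (SE) with a limma adjusted p of 0.0533. Its other probes gave 1.01 and, for a dim one, -0.37. NPM1, nucleophosmin, had 14.74, 14.40 and 14.78 in the clones against 13.71, a difference of 0.93 ± 0.20 (SE). All clones lay above the parental array for both genes.

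**Figure D4:**
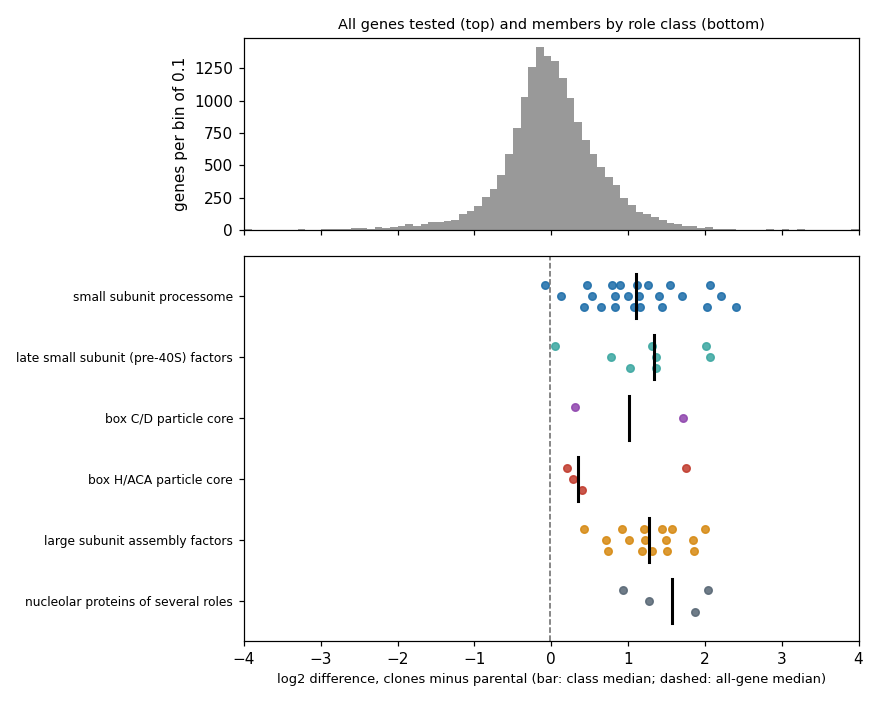
Mean log2 difference, clones minus parental, for all 16592 genes tested (top, genes per bin of 0.1, values beyond 4 counted in the end bins) and for the 58 genes by role class (bottom, 1 point per gene, bar at the class median). The class medians lie between 0.35 and 1.57, against -0.02 for all genes.

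The test threshold runs through the middle of these genes. The adjusted p of the 16 that rose lay between 0.0442 and 0.0481 by limma, with folds of 2.58 to 5.31. The lowest over all genes tested was also 0.0442. A further 12 of the 58 had an adjusted p from 0.05 to 0.06, a band not counted over all genes. Of the 58 genes 36 were at least 2-fold higher in mean. A difference of 0.99, that of WDR75 and just short of 2-fold, was above that of 94.2% of all genes. The count of rises changes with the processing. It was 29 with the first floor on low signals that was tried, 1.09 units, in place of the 1.52 units kept after the counts were seen. Of all genes 7.32% then passed in either direction, against 4.06% at 1.52 units. The count was 3 with normexp on the scanner's background column, where 0.886% of all genes passed in either direction. Normexp also lowered the median to 0.75 and the count at 1.5-fold to 26, against 2.95% of all genes. Under normexp 2 of the 16 genes passed the threshold and 9 had a fold lower by over 1.5 times. The count of rises was 43 of 57 tested with the authors' processed values, where 13.3% of all genes passed in either direction. Leaving out any 1 of the clones GR1, GR3 or GR4 leaves 1 residual degree of freedom and no call by limma among all genes, and 41 to 51 of the 58 then had an unadjusted p under 0.05, against 21.2% to 36.5% of all genes. The median over the 58 genes then was 1.09, 1.295 and 1.202.

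Clone GR3 tended to hold the lowest values among the clones. It was the lowest of the 3 for 43 of the 58 genes (74.1%), against 38.8% of all genes. The median difference from the parental array was 1.37 in GR1, 1.04 in GR3 and 1.22 in GR4. GR3 minus the mean of GR1 and GR4 had a median of -0.21 over the 58 genes and -0.01 over all genes. With the normexp background correction GR3 was lowest for 24 of the 58, against 39.6% of all genes. That median was then -0.05, against -0.01 over all genes. No test was made of this difference between clones.

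Genes with and without the motif shown above were then set side by side. Of the 22 genes with the E-box 17 were 1.5-fold higher in all 3 clones, and of the 26 with a window but no E-box 19 were. The median differences were 1.39 with it and 1.05 without it. Among tested genes outside the list, 12.98% of the 1471 with the E-box were 1.5-fold higher in all 3 clones, against 9.86% of the 11750 without it. With the E-box beginning between 15 bases before the start and the end of the window, a range set after its positions in the 58 genes were seen, the share was 17.5% of 285 genes, against 10.05% of 12936, and the medians were 0.12 and -0.01. Tested genes outside the list still include the wider list described below, of which 54.9% were 1.5-fold higher in all 3 clones. None of these differences was tested. MYC itself had 9.07, 9.14 and 9.29 in GR1, GR3 and GR4 against 8.29 in parental cells. Its difference of 0.87 ± 0.14 (SE), with all clones above the parental array, did not pass the threshold (limma adjusted p = 0.0616).

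Other genes of the same process were counted from a list of 84, of which 82 were tested. By limma 10 rose (12.2%) and 0 fell, against 2.17% and 1.89% of all genes. By size, 45 (54.9%) were at least 1.5-fold higher and 2 at least 1.5-fold lower in all 3 clones, against 10.1% and 8.48%. Their median difference was 0.80. The largest difference was 2.49 ± 0.37 (SE) for the nucleolar protein LYAR, which missed the threshold (limma adjusted p = 0.0559). The largest among those that rose were 1.81 ± 0.21 (SE) for URB2, a nucleolar factor of the large subunit, 1.54 ± 0.15 (SE) for the GTPase GTPBP4 and 1.51 ± 0.14 (SE) for NUFIP1, which helps to assemble box C/D particles. The helicase DDX51 and the large subunit factor MAK16 rose by 1.49 ± 0.18 and 1.44 ± 0.11 (SE).

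Some genes of that wider list were lower in the clones. NOP53, a large subunit factor that recruits the RNA exosome, had 8.82, 8.89 and 8.64 in GR1, GR3 and GR4 against 9.83 in parental cells, the lowest difference of the list at -1.05 ± 0.15 (SE). It did not pass the threshold (limma adjusted p = 0.0545). PWP2, a processome subunit, differed by -0.76 and NVL, an ATPase of the large subunit pathway, by -0.59, also without passing. These 3 and LYAR were picked after their values were seen.

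The arrays were alike in breadth, with 91.5% to 93.7% of the gene probes above the limit set by blank spots on the clones and 92.4% on the parental array. With 4 arrays in all, precision is limited by their number. The spots of one control probe averaged 15546.5 to 16703 units on the clones, against 8855 on the parental array, and the part of this in the results was not tested. Epithelial markers KRT7, KRT18, KRT19 and EPCAM were bright on all 4 arrays, at log2 signals of 11.95 to 15.23. The blood cell markers PTPRC and CD3E were at most 1.47, near the floor of 0.61, while CD14 had 5.05 to 5.39 in the clones and 6.61 in parental cells. Among fibroblast markers COL1A1 and COL1A2 were at most 1.89, while the other 3 were above the limit on all arrays. LUM had 7.33 to 9.14 in the clones and 8.83 in parental cells, DCN had 6.69 to 6.75 in the clones and 6.94 in parental cells, and PDGFRB had 6.03 to 6.08 in the clones and 6.41 in parental cells. The endothelial markers CDH5 and VWF lay between 2.68 and 3.37 in the clones, against 3.22 and 3.48 in parental cells. VIM, a mesenchymal marker, rose with 11.61, 11.37 and 11.31 in GR1, GR3 and GR4 against 8.59 in parental cells. CDH2, the other mesenchymal marker, had 7.45, 6.66 and 6.61 in the clones and 6.91 in parental cells. The part of these markers in the results was not tested.

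**Figure D5:**
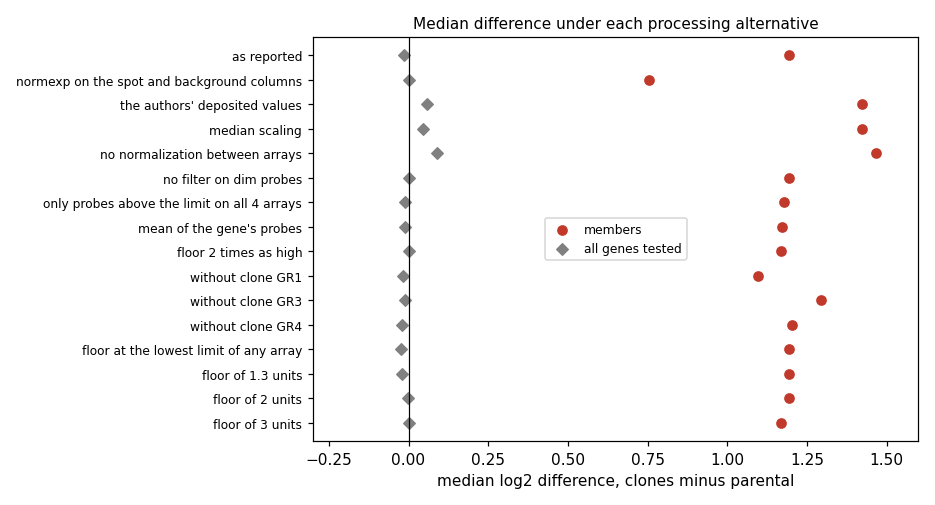
Median log2 difference, clones minus parental, over the ribosome biogenesis factors (circles) and over all genes tested (diamonds) under the reported processing and 15 alternatives. The median of the factors lies between 0.75 and 1.47, and that of all genes stays within 0.1 of 0.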

How the data were processed

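Cy5-labelled RNA was hybridized to Toray 3D-Gene arrays. The deposited scanner files hold the median intensity of each spot, per the file headers, before background subtraction. A second deposited table, also of intensity, holds the authors' values after subtraction of blank spots and scaling, and could be recomputed within 6.11e-06 units. Here the mean of the middle 90% of 2680 blank spots was subtracted, and signals were quantile normalized, floored at 1.52 units and log2 transformed. The floor was set after call counts at floors of 1.09, 1.3, 2 and 3 units had been seen, to the highest over the arrays of the lowest signal above the limit (2 SD of the blanks over their mean). A probe was tested if above its limit in parental cells or in every clone (22796 of 24460, 11 left out as faulty), and the brightest probe stood for a gene. Clones and parental array were compared with limma 3.58.1 in R 4.3.3 (lmFit and eBayes, two-sided, 2 residual degrees of freedom, adjusted by Benjamini-Hochberg across the tested probes), which assumes that parental arrays would vary as the clones do. Of the 73 probes of the factors 6 were matched through a former symbol, by RefSeq synonyms. The factors, the wider list and the motif were chosen with earlier results of these data known. Named genes are all that passed the threshold and, per class, the 3 with the largest differences and the one nearest to 0, with all genes of classes of 4 or fewer, and at most 5 of the wider list per direction; DDX10, IMP4 and other genes named beside them were added with values known. Bins of motif position were set after a first look at the positions. The code was tested on simulated data, whose spread was changed once after a first version made no calls. The alternatives were normexp (offset 50) on the spot and background columns, the authors' values, other scaling, filters, probe rules and floors, and leaving out each clone. The background column followed the spot's own signal (log correlation 0.93 to 0.96), so the blank mean was preferred. The offset of 50 exceeds the median signal above the blank mean, 35.5 to 38.1 units on the 4 arrays.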

Additional observations from a re-analysis of the deposited data

How the results depend on the processing

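The median over the factors stayed positive and above that of all genes under all 15 alternatives, but the number of calls did not hold. The floor is the choice to weigh first, because it was chosen with the counts known. The first floor tried, 1.09 units, gave 29 calls among the factors, 1215 among all genes and 22 in the wider list; 1.3 units gave 26 and 992, 2 units gave 11, 372 and 3, and 3 units gave 14 and 804, against 16, 674 and 10 as reported. These 4 floors were added after seeing the data. All of them tested 16592 genes. With the authors' values, and with only probes above the limit on all 4 arrays, 57 factors and 15903 genes were tested. Calls among the factors, all genes and the wider list numbered 3, 147 and 1 with normexp, 43, 2121 and 44 with the authors' values, 22, 796 and 18 with median scaling, 11, 208 and 2 with no normalization between arrays, 39, 2127 and 37 with only probes above the limit on all 4 arrays, and 0, 0 and 0 with no filter on dim probes, where 50 factors and 30.8% of all genes had an unadjusted p under 0.05. Without 1 of the clones in turn the counts were 0 to 0 for each, with 41 to 51 factors and 21.2% to 36.5% of all genes at an unadjusted p under 0.05 (limma). Normexp left 26 factors and 489 of all genes (2.95%) at 1.5-fold higher in all clones; the other alternatives left 42 to 51 factors. The median over all factors was 0.75 with normexp, 1.42 with the authors' values, 1.42 with median scaling and 1.47 with no normalization. In the same order of settings it was 1.06, 1.51, 1.51 and 1.55 for large subunit factors, 0.63, 0.57, 0.57 and 0.61 for the H/ACA core, and 0.74, 1.82, 1.82 and 1.86 for the nucleolar proteins (1.40 with the mean of probes). The processome had 0.48 with normexp, 1.28 with median scaling and 1.33 with no normalization, the late small subunit factors 0.79 with normexp and 1.495 with no normalization, and the C/D core 1.29, 1.28 and 1.33 with the authors' values, median scaling and no normalization. IMP3 turned positive, to 0.18, 0.18 and 0.22 with those 3, and TSR1 turned negative, to -0.026 with normexp and -0.0043 without GR3, in a range of -0.0043 to 0.159 with 1 clone left out. The cause of these changes was not tested; leaving out a clone leaves 1 residual degree of freedom in place of 2. No paired analysis was possible, because the parental line has 1 array and the labels pair no clone with it.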

Other observations

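Further groups were read from both lists by their gene symbols. Of 10 subunits of the RNA exosome, which trims rRNA precursors, 3 were at least 1.5-fold higher in all 3 clones, 0 were 1.5-fold lower and 0 passed the limma threshold. Their median log2 difference was 0.31, from -0.23 for EXOSC6 to 1.304 for EXOSC2. EXOSC2 had 8.94, 8.76 and 9.29 in GR1, GR3 and GR4, against 7.69 in parental cells. Of 15 RNA helicases with DDX or DHX symbols, 10 were at least 1.5-fold higher in all 3 clones and 4 rose by limma, with a median of 0.81. The background shares are those given for all genes.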
